A study of Mus musculus with 16 samples.

Results

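Transforming growth factor beta (TGF-beta) genes were followed in the lungs of 16 mice: the ligands Tgfb1, Tgfb2 and Tgfb3, the receptors Tgfbr1, Tgfbr2 and Tgfbr3, the signal transducer Smad3 and the target gene Tgfbi. All probe sets that the array annotation assigned to exactly 1 of these symbols were taken, which gave 18 probe sets for 8 genes, out of 20380 probe sets for 12393 genes. No probe set of these genes carried a second symbol. Each mouse gave RNA of the left lung to 1 Affymetrix microarray, and the mean age was 14 weeks. The 4 groups were wildtype mice in room air, wildtype mice in ozone, adiponectin-deficient mice in room air and adiponectin-deficient mice in ozone, each with 2 males (M1 and M2) and 2 females (F1 and F2), all labelled as C57BL/6. Exposure lasted 72 h, the ozone concentration was 0.3 ppm, and lungs were taken right after exposure. The deficient mice carry a genetic loss of adiponectin, a hormone of fat cells, and the sources used here do not say which part of the gene Adipoq is missing.

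The 3 TGF-beta proteins are secreted in a latent form, bound to a propeptide and to binding proteins of the extracellular matrix, and must be released before they act. The active ligand binds the type II receptor, Tgfbr2, which recruits and phosphorylates the type I receptor, Tgfbr1, and this in turn phosphorylates Smad2 and Smad3, which enter the nucleus with Smad4 and regulate transcription. In the lung the pathway is known for its part in branching and alveolar development, in restraint of inflammation, and in repair and fibrosis.

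Ozone was followed by higher Tgfb1, Tgfb3 and Tgfbi and lower Tgfb2 and Tgfbr3 in both genotypes. The ligands Tgfb1 and Tgfb2 moved in opposite directions, by up to 0.67 and -1.12 on the log2 scale. Promoter sequence is therefore shown for both, and for Tgfbi as the target gene. Each is the 250 bases before a transcription start of RefSeq's table for GRCm38.p6, printed 5′ to 3′ on the gene's own strand. Capitals mark matches, on either strand, to the TATA box TATAAA, the E-box CACGTG, the GC box GGGCGG and the SMAD box CAGAC. The windows are chr7:25686752-25687001 on the plus strand for Tgfb1, chr1:186705990-186706239 on the minus strand for Tgfb2 and chr13:56609336-56609585 on the plus strand for Tgfbi.
Tgfb1: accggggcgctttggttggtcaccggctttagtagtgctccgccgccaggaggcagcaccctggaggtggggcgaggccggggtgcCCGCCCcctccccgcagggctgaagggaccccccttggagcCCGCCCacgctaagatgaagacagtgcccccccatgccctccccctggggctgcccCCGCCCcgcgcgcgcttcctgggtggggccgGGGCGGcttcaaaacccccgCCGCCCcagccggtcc
Tgfb2: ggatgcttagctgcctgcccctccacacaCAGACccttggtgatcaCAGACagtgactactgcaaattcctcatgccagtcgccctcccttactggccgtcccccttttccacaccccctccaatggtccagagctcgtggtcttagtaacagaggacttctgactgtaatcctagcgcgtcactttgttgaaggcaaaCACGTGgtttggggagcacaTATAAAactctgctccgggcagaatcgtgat
Tgfbi: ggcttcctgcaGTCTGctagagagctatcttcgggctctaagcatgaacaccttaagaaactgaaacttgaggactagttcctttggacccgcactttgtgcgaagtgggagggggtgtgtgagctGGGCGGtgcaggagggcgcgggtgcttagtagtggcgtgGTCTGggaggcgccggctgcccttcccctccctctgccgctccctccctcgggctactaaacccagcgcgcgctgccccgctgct

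The Tgfb1 window was 75.2% G and C and held 5 matches to the GC box and 0 to the TATA box. Of all 32851 windows of this length, from 27025 genes, 96.1% had a lower GC content, and the median was 52.4%. The Tgfb2 window was 53.6% G and C, with a TATA box match whose first base lay 31 bases before the start, an E-box match beginning 51 bases before it, 2 SMAD box matches and 0 GC box matches. The Tgfbi window was 62.4% G and C and held 1 GC box match and 2 SMAD box matches, the nearer of which began 85 bases before the start. Over all windows, 12.4% held a TATA box match, 6.0% an E-box match, 32.7% a GC box match and 42.2% a SMAD box match. A match describes letters and is neither a binding site nor a cause. Of the 8 genes 6 were in that table, with 7 windows.

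In the gene table of the same assembly, Tgfb1 spans chr7:25687002-25705077, Tgfb2 chr1:186622787-186709697, Tgfb3 chr12:86056743-86079041, Tgfbr1 chr4:47353222-47414926, Tgfbr2 chr9:116087695-116175363, Tgfbr3 chr5:107106567-107289629, Tgfbi chr13:56609586-56639359 and Smad3 chr9:63646766-63757994. The Tgfb2 window therefore lies inside the annotated span of the gene, before a start downstream of its outermost one. Which exons the probe sets cover was not analysed here.

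The arrays had median intensities of 145.9 to 153.7, and with 4 of them a group their number sets the precision. Levels are log2 of the deposited intensity, and differences are log2 differences ± SE from a limma model of all 16 arrays with group and sex as terms. The limma p-values were adjusted over all 20380 probe sets by Benjamini-Hochberg, and a probe set was called at an adjusted p under 0.05. Levels of different probe sets are not comparable. Adipoq, the targeted gene, read 7.19 to 11.52 (air) and 7.70 to 8.76 (ozone) on the wildtype arrays, and 6.32 to 8.82 (air) and 6.07 to 6.36 (ozone) on the deficient ones. The highest deficient value lay within the wildtype range and belonged to the array labelled deficient air F2. The summed fat marker level of that array was 9.99, a sum that includes Adipoq itself. Fat markers reached 11.78 on wildtype air F1, and squamous epithelium markers 13.70 and muscle markers 14.97 on deficient air M2, so counts are also given without these 3 arrays. The free description of wildtype ozone F1 names room air while its other labels name ozone. Its summed level of 4 proliferation markers was 10.68, against 10.46 to 10.84 in its group and 7.94 to 8.37 in wildtype air.

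In wildtype mice 13 of the 18 probe sets passed the test after ozone, 6 higher and 7 lower, against 37.2% of all probe sets, 18.3% higher and 18.9% lower. They belonged to 7 of the 8 genes, all but Smad3. In deficient mice 9 passed, 6 higher and 3 lower, against 30.3% of all probe sets, 14.8% higher and 15.5% lower, and they belonged to 5 genes. The median size of the difference over the 18 probe sets was 0.38 in wildtype and 0.27 in deficient mice, beside 0.17 and 0.15 over all probe sets. Air and ozone arrays did not overlap for 5 of the 18 probe sets in wildtype mice, beside 31.1% of all, and for 6 in deficient mice, beside 28.0% of all. Those shares of separated groups were near the background. The 8 genes were chosen with earlier results of these data known, so their counts beside all probe sets are descriptions. Without the 3 arrays rich in fat, squamous or muscle markers the counts were 12 and 8, and without these and deficient ozone F2 they were 12 and 5. Without wildtype ozone M2 alone the wildtype count was 10, and without the sex term it was 8.

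**Figure D1:**
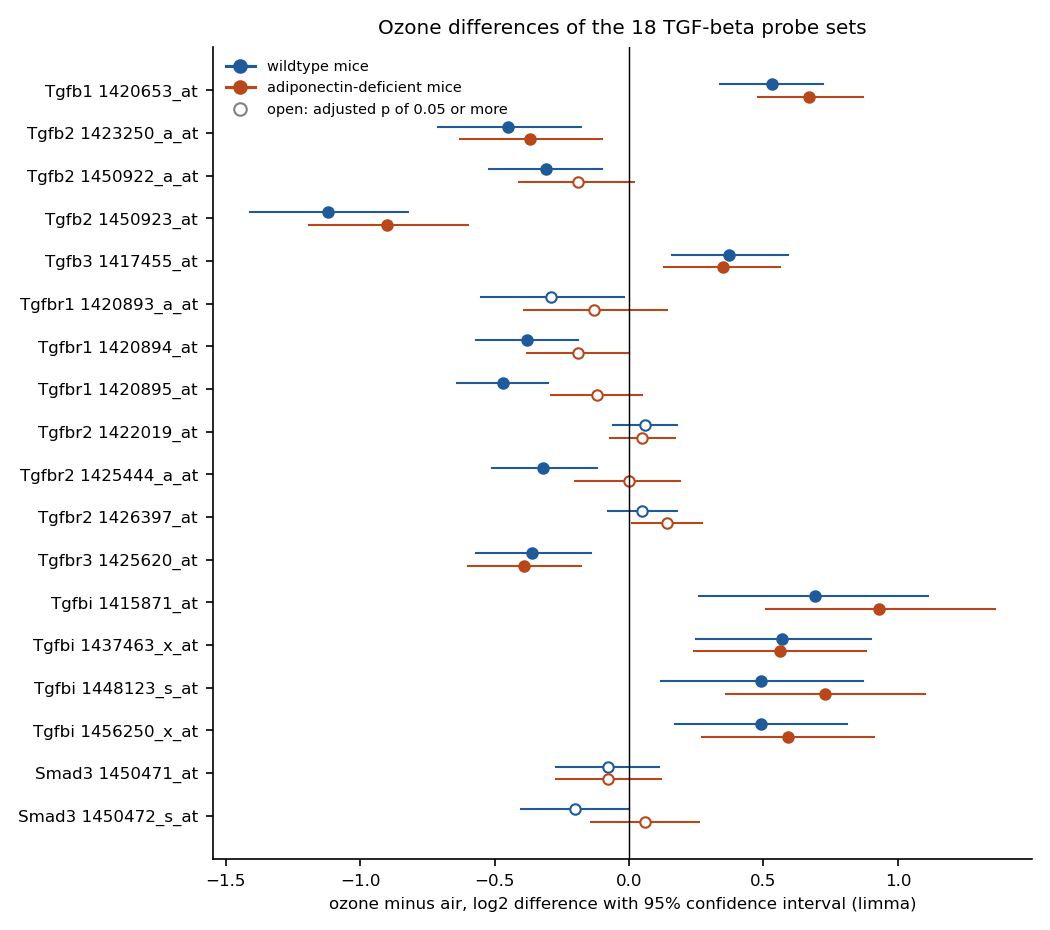
Ozone minus air difference (log2, x axis) of each of the 18 TGF-beta probe sets (y axis) with its 95% confidence interval from limma, in wildtype mice (blue) and adiponectin-deficient mice (orange); open points had an adjusted p of 0.05 or more. Tgfb1, Tgfb3 and the 4 Tgfbi probe sets lie to the right in both genotypes, and Tgfb2 1450923_at lies farthest to the left, at -1.12 and -0.90.

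Tgfb1, the ligand made by most lung and immune cells, rose after ozone in both genotypes. In wildtype mice its probe set 1420653_at went from 9.16, 9.12, 9.22 and 8.91 in air to 9.67, 9.77, 9.60 and 9.49 in ozone; values are listed for M1, M2, F1 and F2 in turn for every gene. The deficient mice had 8.72, 9.01, 9.06 and 8.85 in air and 9.55, 9.50, 9.70 and 9.59 in ozone. Every ozone array was above every air array of its genotype. The rise was 0.53 ± 0.09 in wildtype mice (adjusted p = 0.000398) and 0.67 ± 0.09 in deficient mice (adjusted p = 6.93e-05), a 1.44-fold and a 1.60-fold change.

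Tgfb2, a ligand with known roles in epithelial and mesenchymal development, fell on the probe set 1450923_at. Its wildtype levels were 7.09, 6.88, 7.13 and 7.30 after air and 6.34, 5.84, 5.89 and 5.87 after ozone. In deficient mice they were 7.13, 6.73, 7.07 and 6.86 in air and 6.14, 5.67, 6.19 and 6.19 in ozone. The groups were apart in both genotypes, with wildtype M1 the highest and deficient M2 the lowest of the ozone arrays. The difference was -1.12 ± 0.14 in wildtype mice (adjusted p = 3.59e-05), to 0.461 of the air level, and -0.90 ± 0.14 in deficient mice (adjusted p = 0.000213), to 0.536 of it.

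The other 2 Tgfb2 probe sets differed less. Probe set 1423250_a_at averaged 8.34 ± 0.14 (air) and 7.90 ± 0.24 (ozone) in wildtype mice, and 8.26 ± 0.19 (air) and 7.89 ± 0.18 (ozone) in deficient mice, each with SD and n = 4. Its groups overlapped, in the wildtype because both M1 in ozone and M2 in air read 8.14. The difference was -0.45 ± 0.12 in wildtype mice (adjusted p = 0.011) and -0.37 ± 0.12 in deficient mice (adjusted p = 0.0361). Leaving out any of 5 deficient arrays ended the deficient call: in air M1 (adjusted p = 0.107) or F1 (0.108), in ozone M2 (0.11), F1 (0.0923) or F2 (0.079). Over all alternatives it lay between 0.00354 and 0.11.

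Probe set 1450922_a_at of Tgfb2 averaged 6.80 ± 0.10 (air) and 6.49 ± 0.18 (ozone) in wildtype mice (SD, n = 4), a difference of -0.31 ± 0.10 (adjusted p = 0.0247). Here too leaving out single wildtype arrays ended the call: in air M1 (adjusted p = 0.0646) or F2 (0.0695), in ozone M2 (0.0725), F1 (0.0684) or F2 (0.0626). Over all alternatives it lay between 0.0043 and 0.0725. In deficient mice the averages were 6.65 ± 0.11 and 6.46 ± 0.17, and the difference of -0.19 did not pass (adjusted p = 0.166). The gap between 1450923_at and 1423250_a_at was -1.24 ± 0.07 in air against -1.91 ± 0.18 in ozone for wildtype mice, and -1.31 ± 0.06 against -1.84 ± 0.19 for deficient mice (SD, n = 4). Both changes of the gap had the smallest p that 4 against 4 arrays allow (two-sided exact permutation p = 0.0286, and 0.0858 after Benjamini-Hochberg adjustment over 6 such tests), and neither passed after adjustment. The other 4 tests, on pairs of Tgfbr2 and Tgfbr1 probe sets, had a p of 0.114 to 0.657. These pairs of probe sets were chosen after their values were seen.

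Tgfb3, a ligand of mesenchymal tissue that is needed for lung and palate development, rose by a smaller amount. On 1417455_at the wildtype mice read 8.27, 8.44, 8.97 and 8.65 in air and 8.97, 8.55, 9.03 and 9.28 in ozone. In deficient mice the levels were 8.34, 8.43, 8.86 and 8.71 in air and 8.87, 8.78, 9.06 and 9.0 in ozone. Air and ozone arrays overlapped in both genotypes, with the female arrays high in each group. With sex in the model the rise was 0.37 ± 0.099 in wildtype mice (adjusted p = 0.00838) and 0.35 ± 0.099 in deficient mice (adjusted p = 0.0154). Without the sex term neither passed (adjusted p = 0.0884 and 0.134). The deficient call also ended without deficient ozone M1 (adjusted p = 0.051), without the 3 arrays rich in fat, squamous or muscle markers (0.0597), and without these and deficient ozone F2 (0.0643). Adjusted p-values ranged from 0.00281 to 0.0884 in wildtype and from 0.00735 to 0.134 in deficient mice.

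Markers of mesenchymal cells moved in the same comparisons. In bulk lung, fewer cells of a type and less RNA per cell cannot be told apart. Of 10 fibroblast markers 5 fell and 1 rose in wildtype mice, and 3 fell and 1 rose in deficient mice. Over all genes 17.1% fell and 19.6% rose in wildtype mice, and 14.6% fell and 15.6% rose in deficient mice. Pdgfra, a receptor that marks alveolar fibroblasts, changed by -0.39 ± 0.089 and -0.31 ± 0.089 (adjusted p = 0.0032 and 0.0153). The summed level of the list, the log2 of its summed intensities, was 13.92 to 14.03 in air against 13.33 to 13.83 in ozone for wildtype mice, and 13.85 to 13.96 against 13.46 to 13.71 for deficient mice. Of 6 smooth muscle markers 2 rose in each genotype, Actg2 and Acta2, against 19.6% and 15.6% of all genes, and Acta2 is also on the list of targets. Their summed level was 11.97 to 13.22 in air against 12.75 to 13.53 in ozone for wildtype mice, and 12.50 to 12.74 against 12.79 to 13.35 for deficient mice. Their part in the ligand and receptor values was not tested.

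**Figure D2:**
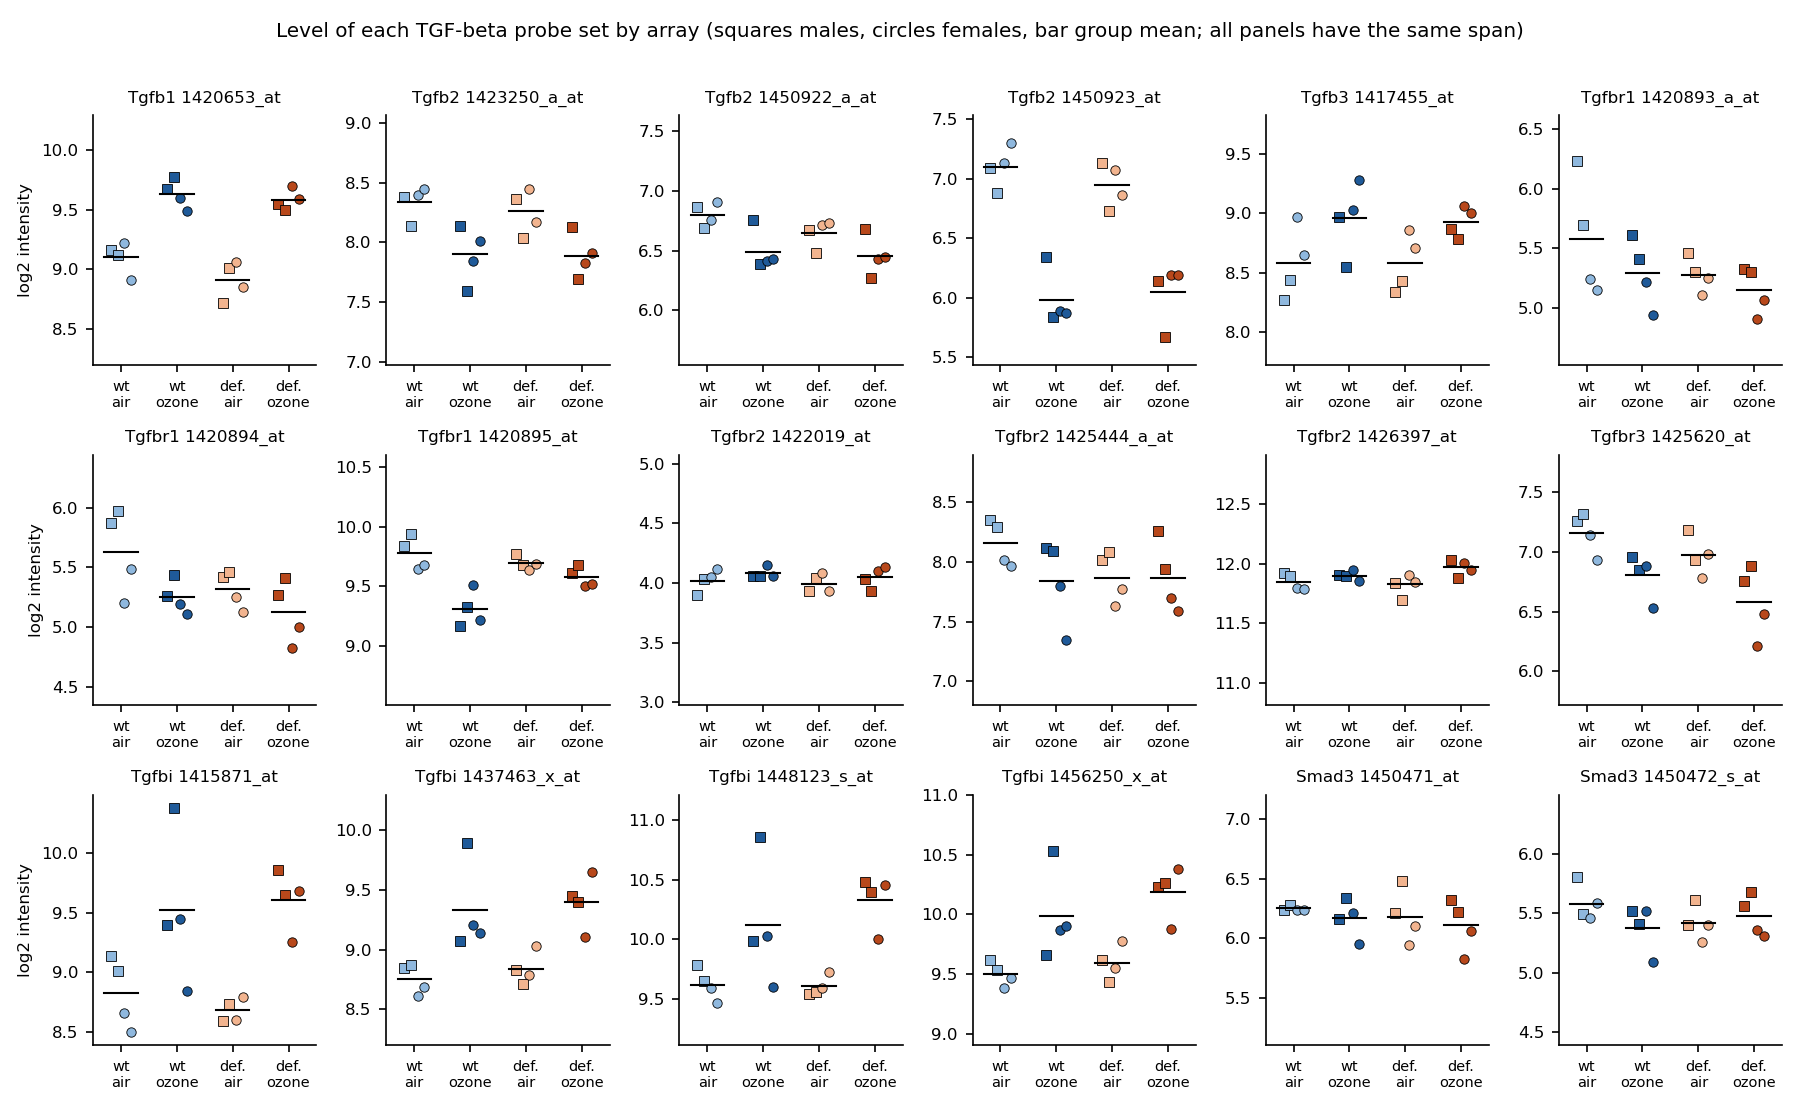
Log2 intensity (y axis) of each TGF-beta probe set on each of the 16 arrays by group (x axis; wt, wildtype; def., adiponectin-deficient), with squares for males, circles for females and a bar at the mean of 4 arrays. Ozone arrays lie above air arrays for Tgfb1 1420653_at and below them for Tgfb2 1450923_at in both genotypes, and wildtype ozone M2 stands above its group on the 4 Tgfbi probe sets.

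Tgfbr1, the type I receptor kinase that phosphorylates Smad2 and Smad3, fell in wildtype mice. On its brightest probe set, 1420895_at, wildtype mice read 9.84, 9.94, 9.65 and 9.68 in air and 9.17, 9.33, 9.51 and 9.22 in ozone, with no overlap. The deficient mice read 9.77, 9.68, 9.64 and 9.69 in air and 9.61, 9.68, 9.50 and 9.52 in ozone, where the groups overlapped. The difference was -0.47 ± 0.079 in wildtype mice (adjusted p = 0.000358) and -0.12 ± 0.079 in deficient mice (adjusted p = 0.271). The difference between these 2 effects was 0.35 ± 0.11, with an unadjusted p of 0.00697 and an adjusted p of 0.971, so it was not called.

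The 2 dimmer Tgfbr1 probe sets had mean levels at the 22.0 and 22.1 percentile of all probe sets. Probe set 1420894_at averaged 5.63 ± 0.35 (air) and 5.25 ± 0.14 (ozone) in wildtype mice (SD, n = 4), with overlapping groups and a difference of -0.38 ± 0.09 (adjusted p = 0.00434). Without the sex term its adjusted p was 0.0758, the highest of its alternatives, which began at 0.000629. Its deficient difference was -0.19 ± 0.09 (adjusted p = 0.133). For 1420893_a_at the differences were -0.29 ± 0.13 and -0.13 ± 0.13, and neither passed (adjusted p = 0.0876 and 0.489). Without wildtype air F2 the first was -0.36 and passed (adjusted p = 0.0459, the lowest of its alternatives).

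Tgfbr2, the type II receptor that binds the ligand first, was called in wildtype mice on 1 of its 3 probe sets. The brightest, 1426397_at, ran from 11.79 to 11.92 (air) and from 11.86 to 11.95 (ozone) in wildtype mice, and from 11.70 to 11.91 (air) and from 11.88 to 12.03 (ozone) in deficient mice. Its differences of 0.05 ± 0.06 and 0.14 ± 0.06 did not pass (adjusted p = 0.542 and 0.086). On 1425444_a_at the wildtype mice read 8.35, 8.29, 8.02 and 7.97 in air and 8.12, 8.09, 7.80 and 7.35 in ozone. In deficient mice it read 8.02, 8.08, 7.63 and 7.77 in air and 8.26, 7.94, 7.70 and 7.59 in ozone. Groups overlapped in both genotypes, and within each group both males were above both females.

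With sex in the model, 1425444_a_at of Tgfbr2 fell by 0.32 ± 0.092 in wildtype mice (adjusted p = 0.0144) and differed by 0.00 ± 0.092 in deficient mice (adjusted p = 0.992). The wildtype call ended without the sex term (adjusted p = 0.177) and without deficient ozone F2 and those 3 arrays together (0.0545), with alternatives from 0.00813 to 0.177. The difference between the 2 effects, 0.31 ± 0.13, had an unadjusted p of 0.029 and an adjusted p of 0.971. The third Tgfbr2 probe set, 1422019_at, had a mean level at the 1.3 percentile and read 3.90 to 4.15 over all arrays. Its differences were 0.06 and 0.05 (adjusted p = 0.442 and 0.543). The gap between 1425444_a_at and 1426397_at changed with ozone by -0.37 in wildtype and -0.14 in deficient mice, and neither change passed (two-sided exact permutation p = 0.114 and 0.486), so a difference between these probe sets is not shown.

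Tgfbr3, or betaglycan, a co-receptor that presents the ligands, TGF-beta 2 above all, to the type II receptor, fell in both genotypes. On 1425620_at the wildtype mice read 7.26, 7.32, 7.14 and 6.93 in air and 6.96, 6.85, 6.88 and 6.53 in ozone. In deficient mice it read 7.18, 6.93, 6.78 and 6.98 in air and 6.76, 6.88, 6.21 and 6.48 in ozone. The groups overlapped at 1 air array each, F2 in wildtype and F1 in deficient mice. Its difference was -0.36 ± 0.099 in wildtype mice (adjusted p = 0.0112) and -0.39 ± 0.099 in deficient mice (adjusted p = 0.00799). Without the sex term neither passed (adjusted p = 0.061 and 0.052), and these were the highest of their alternatives, which began at 0.00426 and 0.00386.

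Endothelial markers are given beside the receptors, since endothelium is a known site of TGF-beta receptor expression. Of 8 such markers 2 fell in wildtype mice, and 3 rose and 1 fell in deficient mice, where 17.1% of all genes fell in wildtype mice and 15.6% rose and 14.6% fell in deficient mice. Their summed level was 13.74 to 13.87 in air against 13.73 to 13.95 in ozone for wildtype mice, and 13.70 to 13.89 against 13.77 to 13.98 for deficient mice. Their part in the receptor values was not tested.

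Smad3, the transcription factor that Tgfbr1 phosphorylates, passed no test of ozone. On 1450471_at the wildtype mice read 6.24, 6.28, 6.24 and 6.24 in air and 6.16, 6.34, 6.21 and 5.95 in ozone. In deficient mice the levels were 6.21, 6.48, 5.94 and 6.10 in air and 6.32, 6.22, 5.83 and 6.06 in ozone. Groups overlapped, and the differences were -0.08 ± 0.091 in both genotypes (adjusted p = 0.508 and 0.573). On 1450472_s_at, whose mean lay at the 24.2 percentile, they were -0.20 ± 0.093 and 0.06 ± 0.093 (adjusted p = 0.105 and 0.68). The wildtype difference on that probe set was -0.28 without wildtype ozone F1 and -0.27 without wildtype air M2, and then passed (adjusted p = 0.0255 and 0.044, in a range that began at 0.0255). RNA levels do not show how much of the protein was phosphorylated.

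Tgfbi, a secreted matrix protein named for its induction by TGF-beta, rose on all 4 of its probe sets in both genotypes. On 1415871_at the wildtype mice read 9.14, 9.01, 8.66 and 8.50 in air and 9.40, 10.38, 9.45 and 8.84 in ozone. In deficient mice it read 8.59, 8.73, 8.60 and 8.79 in air and 9.86, 9.65, 9.25 and 9.68 in ozone. The deficient groups were apart, and the wildtype groups overlapped through F2 in ozone. The rise was 0.69 ± 0.20 in wildtype mice (adjusted p = 0.0138) and 0.93 ± 0.20 in deficient mice (adjusted p = 0.00238), a 1.61-fold and a 1.91-fold change.

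The brightest Tgfbi probe set, 1448123_s_at, read 9.79, 9.65, 9.59 and 9.47 in air against 9.99, 10.86, 10.03 and 9.60 in ozone for wildtype mice. For deficient mice it read 9.54, 9.56, 9.59 and 9.73 against 10.48, 10.40, 10.00 and 10.46. It rose by 0.49 ± 0.17 (adjusted p = 0.037) and 0.73 ± 0.17 (adjusted p = 0.00524). Probe set 1437463_x_at rose by 0.57 ± 0.15 (adjusted p = 0.00829) and 0.56 ± 0.15 (adjusted p = 0.011). For 1456250_x_at the rise was 0.49 ± 0.15 (adjusted p = 0.0181) and 0.59 ± 0.15 (adjusted p = 0.00719). Groups of the latter 2 were apart in both genotypes. The suffixes s and x mark probe sets whose probes can match other transcripts too.

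Wildtype ozone M2 was the highest wildtype array for all 4 Tgfbi probe sets. Without it the wildtype rise of 1415871_at was 0.44 (adjusted p = 0.0351), that of 1437463_x_at was 0.39 (adjusted p = 0.0194), that of 1448123_s_at was 0.27 (adjusted p = 0.107) and that of 1456250_x_at was 0.31 (adjusted p = 0.0519). The same array had a summed level of 5 neutrophil markers of 15.25, against 10.64 to 10.83 on the other 3 of its group and 10.94 to 12.87 on the wildtype air arrays. None of the 5 markers passed the test of ozone in either genotype, and their part in the Tgfbi values was not tested. The wildtype call of 1448123_s_at also ended when wildtype air M1 (adjusted p = 0.0595), M2 (0.0886), F1 (0.0522) or F2 (0.0744), wildtype ozone F1 (0.0708) or the 3 arrays rich in fat, squamous or muscle markers (0.0501) were left out. Its range was 0.00963 to 0.107, and those of 1415871_at, 1437463_x_at and 1456250_x_at were 0.00316 to 0.0389, 0.00424 to 0.024 and 0.00454 to 0.0519. Without those 3 arrays and deficient ozone F2 the deficient calls of 3 Tgfbi probe sets ended, with adjusted p-values of 0.0863 for 1437463_x_at, 0.0599 for 1448123_s_at and 0.0776 for 1456250_x_at. Across their alternatives these began at 0.00114, 0.000225 and 0.000751. Of 8 macrophage markers 2 fell and 0 rose in each genotype, beside 17.1% and 14.6% of all genes that fell. Their summed level was 12.52 to 13.20 in air against 12.09 to 13.13 in ozone for wildtype mice, and 12.60 to 12.91 against 12.76 to 13.08 for deficient mice.

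Genes of the rest of the pathway were read by their brightest probe set, in 6 lists with 97 measured genes. The lists were chosen with earlier results of these data known, so their counts beside all genes, here and below, are descriptions and not tests. In wildtype mice 29 rose and 19 fell, 29.9% and 19.6%, beside 19.6% and 17.1% of all genes. In deficient mice 30 rose and 15 fell, 30.9% and 15.5%, beside 15.6% and 14.6% of all genes. Without the 3 arrays rich in fat, squamous or muscle markers the counts were 30 and 17 in wildtype and 27 and 16 in deficient mice.

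Release of the ligand was represented by 19 measured genes of the latent complex and its activators. Of these 5 rose and 1 fell in wildtype mice and 9 rose and 1 fell in deficient mice, with median differences of 0.15 and 0.27. Over all genes 19.6% rose and 17.1% fell in wildtype mice, and 15.6% rose and 14.6% fell in deficient mice. Thbs1, thrombospondin 1, which can activate latent TGF-beta, rose by 1.53 ± 0.23 and 1.73 ± 0.23 (adjusted p = 0.000138 and 5.57e-05). Mmp14, a membrane metalloproteinase, rose by 0.91 ± 0.082 and 1.10 ± 0.082 (adjusted p = 2.3e-06 and 2.69e-07). Emilin1, a matrix glycoprotein that holds back processing of the TGF-beta precursor, rose by 0.76 ± 0.085 and 1.08 ± 0.085 (adjusted p = 1.48e-05 and 4.06e-07). Itgb6, a subunit of the integrin that activates latent TGF-beta on epithelium, differed by 0.37 ± 0.15 in wildtype mice (adjusted p = 0.065) and rose by 0.50 ± 0.15 in deficient mice (adjusted p = 0.0195), where 6 of 28 alternatives ended the call (adjusted p from 0.0046 to 0.166). The wildtype difference passed under 8 of 28 (adjusted p from 0.0379 to 0.219). Those that ended the deficient call included the fits that left out deficient air M1 (0.0604), deficient air M2 (0.0622) or deficient ozone M1 (0.0711). Ltbp1, which anchors the latent complex in the matrix, differed by -0.04 and 0.05 (adjusted p = 0.722 and 0.668). The gene of this list that fell was Ltbp3, at -0.28 ± 0.11 in wildtype and -0.41 ± 0.11 in deficient mice (adjusted p = 0.0489 and 0.00818). Its wildtype call ended under 19 of 28 alternatives (adjusted p from 0.0084 to 0.171).

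Signal transduction was represented by 14 measured genes, of which 3 rose and 5 fell in wildtype mice and 0 rose and 4 fell in deficient mice. Of all genes 19.6% rose and 17.1% fell in wildtype mice, and 15.6% and 14.6% in deficient mice. Smad4, the common partner of Smad2 and Smad3, fell, with differences of -0.41 ± 0.059 and -0.37 ± 0.059 (adjusted p = 0.000104 and 0.000304). Sp1, a transcription factor that binds GC boxes and works with SMADs, fell as well, at -0.76 ± 0.07 and -0.54 ± 0.07 (adjusted p = 3.02e-06 and 5.12e-05). Tab2, an adaptor of the TAK1 kinase, fell too, at -0.40 ± 0.076 and -0.33 ± 0.076 (adjusted p = 0.000957 and 0.00384). Smad2 rose by 0.24 ± 0.071 in wildtype mice (adjusted p = 0.0167), a call that 7 of 28 alternatives ended (adjusted p from 0.00392 to 0.0825), and its deficient difference of 0.17 did not pass (adjusted p = 0.0769). Leaving out wildtype air M2 gave 0.0589 for it and leaving out wildtype ozone F1 gave 0.0615. Foxh1 and Pias4, of the same list, rose by 0.36 ± 0.068 and 0.29 ± 0.08 in wildtype mice (adjusted p = 0.000841 and 0.011). Their deficient differences, 0.13 for each, did not pass (adjusted p = 0.18 and 0.229). Eng, endoglin, an endothelial co-receptor, differed by -0.19 and -0.15 (adjusted p = 0.0661 and 0.161).

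Of 13 intracellular inhibitors 3 rose and 5 fell in wildtype mice, and 3 rose and 4 fell in deficient mice. Beside these, 19.6% of all genes rose and 17.1% fell in wildtype mice, and 15.6% and 14.6% in deficient mice. Bambi, a decoy receptor without a kinase domain, fell, at -0.48 ± 0.099 and -0.62 ± 0.099 (adjusted p = 0.00147 and 0.000266). Pmepa1, a TGF-beta-induced protein that sequesters SMADs, rose by 0.32 ± 0.067 and 0.60 ± 0.067 (adjusted p = 0.00194 and 1.41e-05). Tgif1, a SMAD corepressor, rose by 0.37 ± 0.073 and 0.42 ± 0.073 (adjusted p = 0.00113 and 0.000492). Smad7, the inhibitory SMAD induced by the pathway, fell by 0.39 ± 0.11 in wildtype mice (adjusted p = 0.0149) and differed by -0.28 ± 0.11 in deficient mice (adjusted p = 0.0787). Its wildtype call ended when wildtype air M2 (adjusted p = 0.0522) or wildtype ozone M2 (0.052) was left out, in a range of 0.00559 to 0.0522.

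Among 9 extracellular inhibitors 3 rose and 1 fell in each genotype. The shares of all genes that rose and fell were 19.6% and 17.1% in wildtype and 15.6% and 14.6% in deficient mice. Fst, follistatin, which binds activins, rose by 1.06 ± 0.17 and 1.25 ± 0.17 (adjusted p = 0.000288 and 9.27e-05). Aspn, asporin, a small proteoglycan that binds TGF-beta 1, fell, at -1.20 ± 0.15 and -1.21 ± 0.15 (adjusted p = 4.23e-05 and 3.96e-05). Of 10 measured genes of the activin arm 2 rose and 1 fell in wildtype mice and 1 rose in deficient mice. The same shares of all genes stand beside them. Inhba, the activin A subunit, rose by 0.37 ± 0.095 in wildtype mice (adjusted p = 0.00749) and differed by 0.23 ± 0.095 in deficient mice (adjusted p = 0.0769).

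Transcriptional targets were the longest list, and 13 of 32 rose and 6 fell in wildtype mice, while 14 rose and 5 fell in deficient mice. Among all genes 19.6% rose and 17.1% fell in wildtype mice, and 15.6% and 14.6% in deficient mice. The median difference was 0.24 in each genotype, beside 0.032 and 0.012 over all genes. Tnc, tenascin C, a matrix glycoprotein of injured tissue, rose by 2.86 ± 0.21 and 3.31 ± 0.21 (adjusted p = 3.38e-07 and 5.14e-08). Col1a1, a chain of type I collagen, rose by 1.19 ± 0.16 and 1.60 ± 0.16 (adjusted p = 7.1e-05 and 6e-06). Acta2 and Tagln, contractile genes of smooth muscle and myofibroblasts, rose by 0.54 ± 0.13 and 0.47 ± 0.11 in wildtype mice (adjusted p = 0.0044 and 0.00331) and by 0.61 ± 0.13 and 0.57 ± 0.11 in deficient mice (adjusted p = 0.00208 and 0.000941). Without the sex term the wildtype calls of Acta2 and Tagln and the deficient call of Acta2 ended (adjusted p = 0.0718, 0.0537 and 0.0506). These were the highest of their alternatives, which began at 0.00184, 0.00075 and 0.000391. Not all targets rose. The 4 largest falls, named after their values were seen, kept their calls in both genotypes under all 28 alternatives. Igfbp3, a carrier of insulin-like growth factors, fell, at -1.26 ± 0.21 in each genotype (adjusted p = 0.00032 and 0.000359). Nox4, an NADPH oxidase, fell, at -0.92 ± 0.12 and -0.83 ± 0.12 (adjusted p = 6.64e-05 and 0.000167). Plod2, a collagen lysyl hydroxylase, was at -0.65 and -0.66, and Zeb2, a transcription factor, at -0.65 and -0.49. Ccn2, the connective tissue growth factor, fell by 0.36 ± 0.12 in wildtype mice (adjusted p = 0.0288) and differed by -0.20 ± 0.12 in deficient mice (adjusted p = 0.248). The Ccn2 call ended under 7 of 28 alternatives (adjusted p from 0.00872 to 0.248), among them those without wildtype air M1 (0.0761), wildtype air F2 (0.0811), wildtype ozone M1 (0.0531) or wildtype ozone F1 (0.0829). Genes of this list respond to other signals as well, and TGF-beta activity was not measured.

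**Figure D3:**
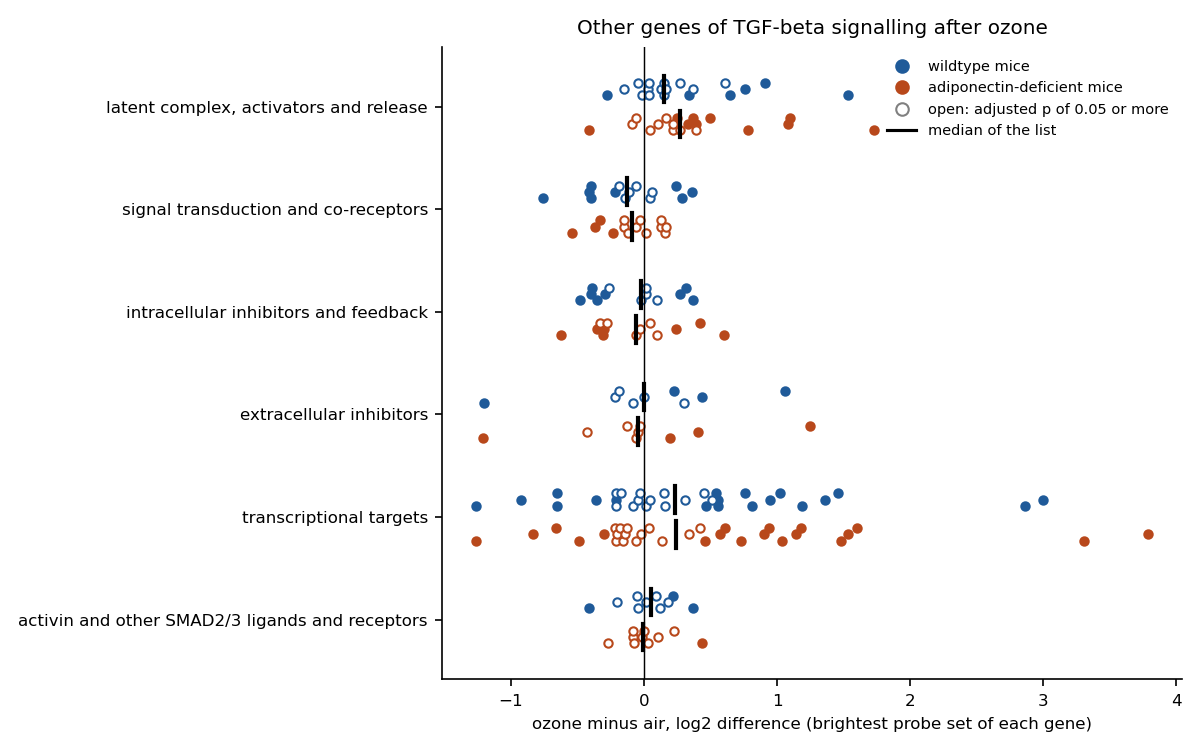
Ozone minus air difference (log2, x axis) of 97 other genes of the pathway in 6 lists (y axis), for wildtype mice (blue) and adiponectin-deficient mice (orange); filled points passed at an adjusted p under 0.05 and black bars mark each list's median. The transcriptional targets reach from -1.26 (Igfbp3) to 3.79 (Timp1 in deficient mice), with a median of 0.24 in each genotype.

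Adiponectin deficiency itself left no TGF-beta probe set past the threshold. In room air, 0 of the 18 passed by limma, beside 0.00491% of all probe sets, and 3 had an unadjusted p under 0.05, beside 6.89% of all. These were 1420894_at of Tgfbr1 at -0.32 ± 0.09 (unadjusted p = 0.00325, adjusted p = 0.568), 1420893_a_at of Tgfbr1 at -0.30 ± 0.13 (unadjusted p = 0.0307, adjusted p = 0.713) and 1425444_a_at of Tgfbr2 at -0.28 ± 0.092 (unadjusted p = 0.00759, adjusted p = 0.601). None of these was the brightest probe set of its gene. The brightest differed by -0.08 ± 0.079 for Tgfbr1 (1420895_at, unadjusted p = 0.319, adjusted p = 0.853). For Tgfbr2 the brightest differed by -0.03 ± 0.06 (1426397_at, unadjusted p = 0.661, adjusted p = 0.95). The count of probe sets that passed was also 0 without the array labelled deficient air F2.

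In ozone, 0 of the 18 passed by limma, beside 0.00981% of all probe sets, and 2 had an unadjusted p under 0.05, beside 11% of all. Tgfbr1 1420895_at was at 9.58 ± 0.087 in deficient and 9.31 ± 0.15 in wildtype mice (SD, n = 4), a difference of 0.27 ± 0.079 (unadjusted p = 0.00406, adjusted p = 0.274). The dimmer Tgfbr1 probe sets leaned the other way, 1420893_a_at at -0.14 and 1420894_at at -0.12 (adjusted p = 0.724 and 0.652). Tgfbr3 differed by -0.22 ± 0.099 (unadjusted p = 0.0388, adjusted p = 0.427). The test of whether ozone acted differently in the 2 genotypes called 0 of 18, beside 0% of all probe sets, and 2 had an unadjusted p under 0.05, beside 4.97% of all. For Tgfb1 the difference of the effects was 0.14 ± 0.13, with a 95% interval from -0.13 to 0.42. A p that misses the threshold does not show that the genotypes respond alike. The calls of Tgfbr1 and Tgfbr2 in wildtype mice alone are therefore not shown to be particular to them.

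Males and females differed for 5 of the 18 probe sets, 1 higher and 4 lower in females, beside 9.31% of all probe sets. Tgfb3 averaged 8.94 ± 0.20 in females and 8.58 ± 0.26 in males (SD, n = 8), and both females were above both males in 4 of 4 groups. The difference of 0.36 ± 0.07 (adjusted p = 0.00679) was about as large as that of ozone. Tgfbr2 1425444_a_at averaged 7.73 ± 0.21 in females and 8.14 ± 0.14 in males, a difference of -0.42 ± 0.065 (adjusted p = 0.00192), with both females below both males in 4 of 4 groups. The brightest Tgfbr2 probe set, 1426397_at, averaged 11.89 in each sex and did not pass (adjusted p = 0.96). Nor did 1422019_at, with a difference of 0.08 (adjusted p = 0.26). A sex difference is thus shown for 1425444_a_at and not for the gene as a whole.

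The 2 dim Tgfbr1 probe sets were lower in females in 4 of 4 groups, by 0.43 ± 0.089 on 1420893_a_at (adjusted p = 0.00894) and by 0.36 ± 0.064 on 1420894_at (adjusted p = 0.00405). The bright one, 1420895_at, averaged 9.55 ± 0.15 in females and 9.63 ± 0.26 in males (SD, n = 8) and did not pass (adjusted p = 0.449). Tgfbr3 averaged 6.74 ± 0.31 and 7.02 ± 0.21, a difference of -0.28 ± 0.07 (adjusted p = 0.023), with both females below both males in 2 of 4 groups. This call ended without wildtype ozone F2 (adjusted p = 0.0501, the highest of its alternatives, which began at 0.0121). Smad3 differed by -0.21 on 1450471_at and by -0.18 on 1450472_s_at and did not pass (adjusted p = 0.0526 and 0.0986). The summed level of 6 smooth muscle markers was 13.12 ± 0.34 in females and 12.66 ± 0.34 in males, and 2 of the 6 were higher in females. Of 10 fibroblast markers 2 were higher in females, with a summed level of 13.82 ± 0.12 against 13.74 ± 0.26. Of 8 macrophage markers 2 were lower in females, Mrc1 and Cd68, with a summed level of 12.09 to 13.10 against 12.60 to 13.20 in males. None of 5 neutrophil markers passed, and their summed level was 11.50 ± 0.72 in females and 12.33 ± 1.38 in males. Beside these marker counts, 9.31% of all probe sets differed by sex, counting both directions. A share of all genes in each direction is not given here. The marker counts are therefore descriptions, and no difference in cell content is concluded from them. The part of these markers in the sex differences was not tested.

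**Figure D4:**
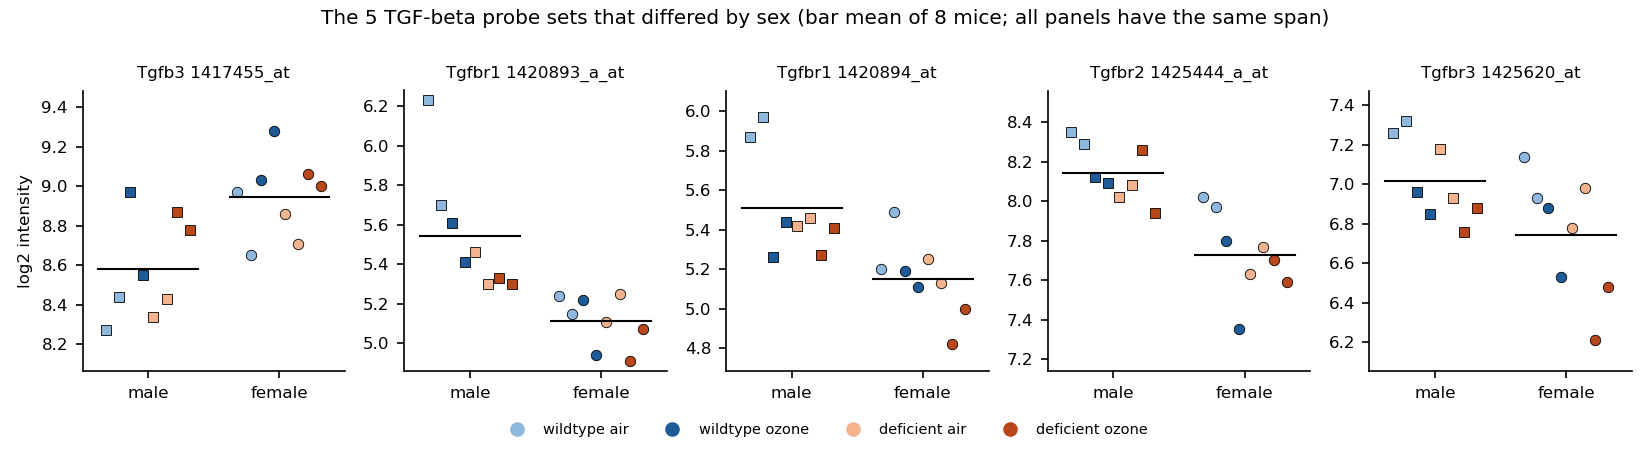
Log2 intensity (y axis) of the 5 TGF-beta probe sets that differed by sex, for 8 male (squares) and 8 female (circles) mice (x axis), coloured by group, with a bar at each mean. The female mean lies above the male mean for Tgfb3, at 8.94 against 8.58, and below it for Tgfbr2 1425444_a_at, at 7.73 against 8.14. Single males and females overlap on both.

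For the 11 TGF-beta probe sets whose levels spanned at least 1 log2 over the 16 arrays, the genes that ran closest were sought among 12112 other genes, as the smallest root-mean-square difference of the centred log2 levels. These arrays share their normalization, and the values, given here for 5 of the 11, are descriptions. Closest to Tgfb1 were Ncln at 0.0871, Stat3 at 0.0941 and Timm50 at 0.0993, where the spread of Tgfb1 itself was 0.328. Tgfb2 1450923_at, with a spread of 0.541, was followed most closely by Grasp at 0.171, Bmp4 at 0.185 and Aass at 0.194. For Tgfb3, with a spread of 0.284, they were Cxcl14 at 0.115, Cnpy3 at 0.121 and Kctd17 at 0.124. Tgfbr3, with a spread of 0.283, had Ate1 at 0.131, Timp3 at 0.141 and the lymphatic and macrophage marker Lyve1 at 0.144. The brightest Tgfbi probe set, with a spread of 0.409, had Fxyd5 at 0.163, Sema4a at 0.165 and Ccl9 at 0.167.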

How the data were processed

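The authors deposited a table of linear intensities, 1 for each probe set on each array, which the submitters' processing notes credit to RMA (background correction, normalization between arrays, and a summary over probes). The sources used here name no software version. Intensities ran from 11.1 to 26974.7, and their log2 was taken. Normalization between arrays hides a change common to all RNA. Of 22690 probe sets, 64 controls were left out, and 691 with several symbols and 1555 with none were not tested. No detection calls were used. Groups and sex came from the labels.

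All 20380 remaining probe sets were fitted with limma 3.58.1 in R 4.3.3 (lmFit, eBayes; group and sex as terms) and adjusted by Benjamini-Hochberg. Members and lists were chosen with earlier results of these data known. Members were all named; of each pathway list the rule took up to 6 called genes of largest difference and 12 fixed genes with a probe set, and not all are printed. Alternatives were normalization, a common median, dim probe sets left out, brightest probe sets, a robust prior, array weights, a stricter threshold, no sex term, replicate numbers as a block, the compared groups alone and arrays left out. They were extended to the 97 pathway genes after seeing the data. Tested on simulated data for 20380 probe sets, with 200 changed by 0.5, 1, 1.5 or 2, the fit recovered, in that order, 78, 96, 100 and 100% of them for the wildtype ozone effect, 62, 98, 98 and 100% for the deficient one, 82, 94, 98 and 96% for the genotypes compared in air, 74, 98, 96 and 98% for those in ozone, and 52, 92, 96 and 100% for the interaction. Of the simulated calls, 3.14% to 6.77% were false, depending on the comparison. The simulated noise was independent between probe sets and only 200 were changed, so these shares need not hold for the real data. Python 3.11.15, pandas 2.3.3, scipy 1.17.1 and matplotlib 3.10.9 did the remaining steps.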

Additional observations from a re-analysis of the deposited data

Results flagged for a closer look

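Within a group of 4 mice, 1 array stood far from the others in 7 of the 72 combinations of probe set and group, where chance gives about 1 in 20. Wildtype ozone M1 read 6.76 on Tgfb2 1450922_a_at, against 6.39 to 6.43 on the others, and 6.34 on Tgfb2 1450923_at, against 5.84 to 5.89. Deficient ozone M2 read 5.67 on Tgfb2 1450923_at, against 6.14 to 6.19. Wildtype ozone M2 read 9.89 on Tgfbi 1437463_x_at, against 9.07 to 9.21, and deficient ozone F1 read 10.0 on Tgfbi 1448123_s_at, against 10.4 to 10.48. The other 2 concern gaps of under 0.1: wildtype ozone F1 read 4.15 on the dim Tgfbr2 1422019_at, against 4.06 on each other array, and wildtype air M2 read 6.28 on Smad3 1450471_at, against 6.24.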

How the results depend on the processing

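Of 2868 values of single TGF-beta probe sets under the alternatives, 2815 kept their side of the threshold, 45 lost the call, 8 gained it and 0 reversed. A reversal was counted only where a value was called, and some uncalled values near zero changed direction. The counts of probe sets called moved by over 1.5 times in these cases. For ozone in wildtype mice 13 became 6 of 8 with the brightest probe set of each gene alone, 6 at an adjusted p under 0.01 and 8 without the sex term. For ozone in deficient mice 9 became 5 of 8 with the brightest probe sets and 5 without the 3 arrays rich in fat, squamous or muscle markers and deficient ozone F2. For sex 5 became 2 of 8 with the brightest probe sets. Fewer probe sets are tested in the first and fewer arrays in the last of these settings; otherwise the cause was not tested. Over the 97 other pathway genes 139 of 5414 values lost the call, 80 gained it and 0 called values reversed, under alternatives run after seeing the data. With the replicate number within sex as a replicate block the counts stayed at 13 and 9 for ozone. Of 24 same-numbered pairs of mice, 0 had a correlation of deviations above 0.1, in a range of -0.33 to 0.1. With group and sex terms removed and 2 mice of each sex per group, this check cannot exclude a pairing by number. How far dim probe sets stood above background is unknown.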
